A study of Drosophila melanogaster with 30 samples.

Results

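Proximal 3R is taken here as all 300-bp bins of chromosome arm 3R (dm3) with a start from 1500001 to 14000000, a span of 12.5 Mb that holds both *Drosophila* Hox complexes. It consists of 41667 bins of the 464488 bins that the chromosomes hold up to their last listed position. For each bin it was read from the authors' lists whether the MNase accessibility (MACC) was called different between a pair of cell lines, and in which line it was higher. The Antennapedia complex interval was set to bins with a start from 2500001 to 2800000 (1000 bins), the bithorax complex interval to bins with a start from 12480001 to 12800000 (1067 bins), and the other 39600 bins form the rest of proximal 3R.

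The study compared S2 cells that stably express polyhomeotic (PH) with a mutation that blocks its polymerization (PH-ML, named PH-mut in the sample labels), S2 cells that stably express wild type PH (PH-WT), and S2 cells, a line of cultured *Drosophila* cells of embryonic origin. Both transgenes were driven by an inducible metallothionein promoter. Protein expression was induced with 0.5 mM CuSO4, and the labels give this treatment for the S2 libraries as well. PH-ML and PH-WT cells keep their own *ph-p* and *ph-d* genes, so the introduced protein was present in addition to the endogenous PH. There are 30 MNase-seq libraries, which are 10 for each line: 5 amounts of MNase in each of 2 experiments. Each PH protein is represented by 1 stable line.

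To obtain MACC, the authors fitted a line through the read frequencies of a bin, scaled to library size, over the logarithm of the MNase amount. Its slope, corrected for GC content, is the MACC, and bins with a larger value are taken as more accessible. The lists name a bin and the line in which its MACC is higher, with both experiments pooled. They hold no MACC score, read number or value per library, so that neither the spread between replicates, a test over samples nor the depth behind a bin could be obtained from them. Shares are given with a 95% Wilson interval that covers counting error alone, because bins of the same cultures are no replicates and neighbors are not independent. For a count of 0 the share that 3 counts of the total would give is printed as well. In the following, PH-ML > S2 and PH-ML < S2 stand for bins called higher and lower in PH-ML–expressing cells relative to S2 cells. The signs are used in the same way for PH-WT relative to S2 and for PH-ML relative to PH-WT. The comparisons share cell lines: a bin with an unusual MACC in 1 line can enter 2 lists. Their calls are therefore set side by side and not counted as separate evidence.

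Hox genes encode homeodomain transcription factors that give segments along the body axis their identity. In *Drosophila* they lie in a pair of clusters on 3R, both of which are well-known targets of Polycomb repression. Polycomb group proteins bind at Polycomb response elements and keep Hox genes silent where they should not be expressed, and PH is a subunit of Polycomb repressive complex 1 whose SAM domain joins PH molecules head to tail. In the RefSeq annotation of genome Release 6, which was used for gene order alone because its coordinates are not those of dm3, 19 protein-coding genes run from *lab* to *Antp*. Among them *lab*, *pb*, *Dfd* and *Scr* specify the head and the front of the thorax, and *Antp* specifies the thorax. The non-homeotic *zen* acts in the dorsal embryo, *bcd* is the maternal determinant of the anterior, and *ftz* is a pair-rule gene. A group of cuticle protein genes (*Ccp84Aa* to *Ccp84Ag*) lies between *lab* and *pb*. In the bithorax complex 6 protein-coding genes run from *Ubx* to *Abd-B*. *Ubx* specifies the posterior thorax, and *abd-A* and *Abd-B* specify the abdomen. The listed bins were not assigned to these genes, because no dm3 annotation was used here.

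Of the 41667 bins of proximal 3R, 798 (1.92%) are listed in at least 1 comparison and 40869 are listed in none. For PH-ML against S2 the list holds 80 bins, namely 63 PH-ML > S2 bins and 17 PH-ML < S2 bins. The 80 bins are 0.192% of proximal 3R (0.154% to 0.239%), against 0.173% in the rest of the series and a background of 0.174% over the whole series. By direction, PH-ML > S2 bins are 0.151% of proximal 3R with a background of 0.129%, and PH-ML < S2 bins are 0.0408% with a background of 0.0452%. Thus 78.8% of the listed bins are higher in PH-ML (68.6% to 86.3%).

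In PH-WT–expressing cells the direction was mostly the opposite. The list against S2 holds 143 bins, which are 22 PH-WT > S2 bins and 121 PH-WT < S2 bins. The 143 bins are 0.343% of proximal 3R (0.291% to 0.404%), against 0.301% in the rest of the series and a background of 0.305%. PH-WT > S2 bins are 0.0528% of proximal 3R with a background of 0.0721%, and PH-WT < S2 bins are 0.290% with a background of 0.233%. Thus 15.4% of the listed bins are higher in PH-WT (10.4% to 22.2%).

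Between both PH-expressing lines 745 bins are listed, with 378 PH-ML > PH-WT bins (0.907% of proximal 3R, background 0.788%) and 367 PH-ML < PH-WT bins (0.881%, background 0.707%). The share of PH-ML > PH-WT bins is 50.7% (47.2% to 54.3%), close to an even split. The 745 bins are 1.79% of proximal 3R (1.67% to 1.92%), against 1.87% in the distal part of 3R beyond 14000000, 1.47% in the rest of the series and a background of 1.49%. With both directions together, the percent of proximal 3R listed in each comparison with S2 is near the background, which lies inside the interval. By direction, PH-WT < S2 bins are above their background of 0.233%, with an interval of 0.243% to 0.347%. This excess depends on 1 window of 500 kb, from 8000001 to 8500000. It holds 31 of the 121 PH-WT < S2 bins, and 90 are left in the other 40000 bins of proximal 3R. The background keeps its own dense windows. For PH-WT > S2, PH-ML > S2 and PH-ML < S2 bins the background lies inside the interval. Between the PH-expressing lines the percent listed is above the background, and in the distal part of 3R it is of similar size. The background counts every bin up to the last listed one of each chromosome, and how many of these bins were tested is not known.

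**Figure D1:**
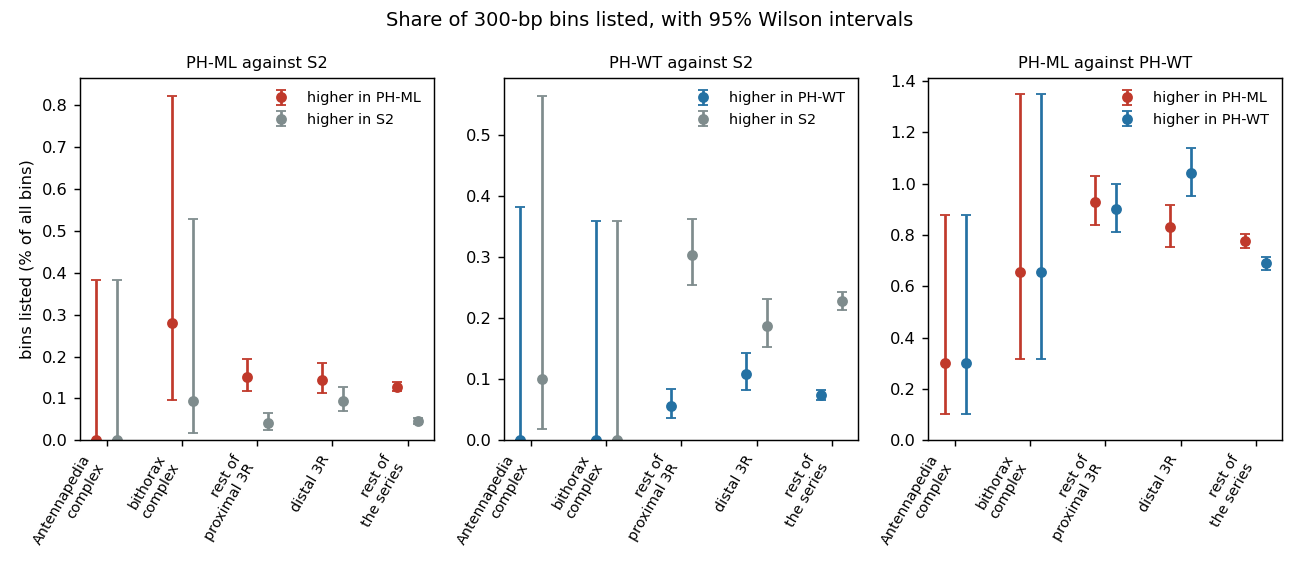
Percent of all 300-bp bins listed in each comparison (y axis, 1 panel per comparison) for the Antennapedia and bithorax complex intervals, the rest of proximal 3R, the distal part of 3R and the rest of the series. Points give the percent of bins higher in the named cell line and bars the 95% Wilson interval; in PH-ML against S2, 0 of 1000 bins are listed in the Antennapedia complex interval and 4 of 1067 in the bithorax complex interval, and the intervals of both complexes are wide.

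The directions in proximal 3R were set against those in distal 3R and in the rest of the series. For PH-ML against S2, 78.8% of the listed bins of proximal 3R are higher in PH-ML, against 60.4% (51.1% to 69.0%) in distal 3R and 73.6% (70.2% to 76.6%) in the rest of the series, which lies inside the interval of proximal 3R. For PH-WT against S2, 15.4% (10.4% to 22.2%) are higher in PH-WT in proximal 3R. In distal 3R it is 36.5% (28.9% to 44.8%) and in the rest of the series 24.6% (22.3% to 27.0%), both outside the interval of proximal 3R. For PH-ML against PH-WT, 50.7% are higher in PH-ML in proximal 3R, against 44.4% (41.1% to 47.7%) in distal 3R and 52.9% (51.7% to 54.2%) in the rest of the series. These differences were not tested, and the intervals treat clustered bins as separate. The share for PH-ML against S2 rests in part on 1 cluster of sites: without the 500-kb window from 8000001 to 8500000 it is 63.0% (48.6% to 75.5%). Without the same window the share higher in PH-WT against S2 is 19.6% (13.3% to 28.0%), an interval that includes the 24.6% of the rest of the series.

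The Antennapedia complex holds few listed bins. Between PH-ML and S2 none of its 1000 bins is listed, which allows a share of up to 0.3% by 3 counts and 0.383% by the Wilson limit. Both are above the 0.192% of the rest of proximal 3R. Between PH-WT and S2 a single PH-WT < S2 bin is listed, at chr3R:2589001-2589300, which is 0.1% (0.0177% to 0.564%) against 0.359% in the rest. Between PH-ML and PH-WT 6 bins are listed, a share of 0.6% (0.275% to 1.30%) against 1.83% in the rest of proximal 3R and the background of 1.49%.

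These 6 bins are split evenly. The 3 PH-ML > PH-WT bins start at 2585401, 2617201 and 2674501. The 3 PH-ML < PH-WT bins start at 2646301, 2648401 and 2691301. No bin of this complex is in more than 1 list, and no pair of listed bins is adjacent. All 7 listed bins lie between 2585401 and 2691600, so that the last 108.4 kb of the interval, from 2691601 on, hold none. Within 50 kb outside the interval there is 1 more listed bin, at chr3R:2825101-2825400, which is PH-ML > S2 and PH-ML > PH-WT.

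The bithorax complex, with *Ubx*, *abd-A* and *Abd-B*, holds 14 listed bins of 1067. Against S2, PH-ML has 4 of them, of which 3 are PH-ML > S2 and 1 is PH-ML < S2. Their share is 0.375% (0.146% to 0.960%), against 0.192% in the rest of proximal 3R and a background of 0.174%, which lies inside the interval. For PH-WT against S2 none is listed, which allows a share of up to 0.281% by 3 counts and 0.359% by the Wilson limit. The rest of proximal 3R has 0.359% and the background is 0.305%. The limit by 3 counts is below both, while the Wilson limit is above the background and about equal to the rest. These limits thus disagree, and whether the share is lower was not settled at this number of bins. The longest part of proximal 3R without a bin on this list, 1314.3 kb from 12087001 to 13401300, contains the whole bithorax complex interval. Between PH-ML and PH-WT all 14 bins are listed, 7 in each direction. Their share is 1.31% (0.783% to 2.19%), against 1.83% in the rest of proximal 3R, with the background of 1.49% inside the interval.

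Inside the bithorax complex interval as defined, the PH-ML < PH-WT bins lie together and the PH-ML > PH-WT bins do not. All 7 PH-ML < PH-WT bins fall within 3.9 kb, from 12582901 to 12586800, where they take 7 of 13 bins. They start at 12582901, 12583201, 12584101, 12584401, 12585601, 12586201 and 12586501. The bin at 12586201 is also the only PH-ML < S2 bin of the complex. The 7 PH-ML > PH-WT bins are not adjacent to another listed bin and lie on both sides of this block. The bin at 12529501 lies before the block, and those at 12587701, 12589801, 12655801, 12695101, 12744901 and 12774301 lie after it. Among them the bins at 12529501, 12589801 and 12655801 are PH-ML > S2 as well. Between the end of the block and the next listed bin, which has the other direction, lie 0.9 kb.

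**Figure D2:**
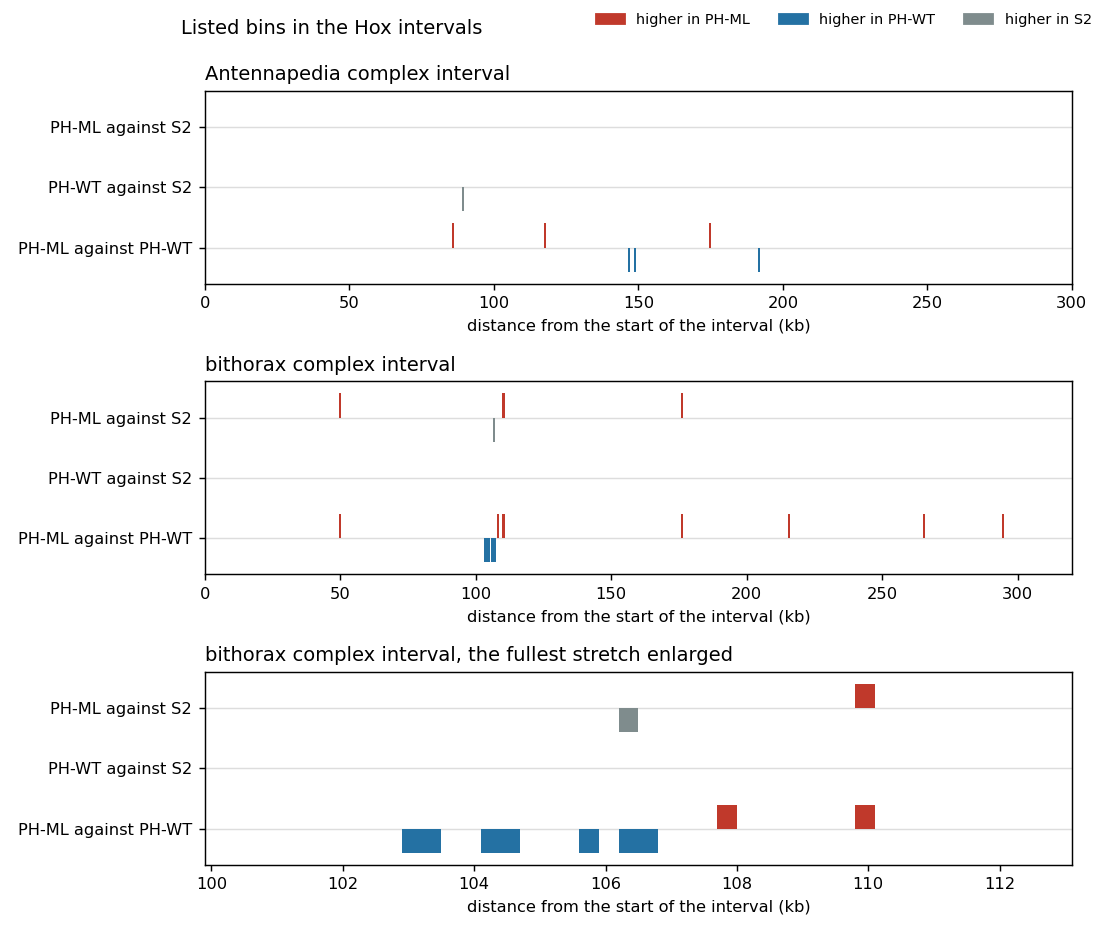
Listed bins in the Antennapedia complex interval (upper panel), the bithorax complex interval (middle panel) and an enlarged stretch of the bithorax complex (lower panel), by distance from the start of the interval in kb. Each row is a comparison, marks above a row stand for bins higher in the line named first and marks below for bins higher in the line named second, and marks in the upper and middle panels are drawn wider than 300 bp; the 7 PH-ML < PH-WT bins of the bithorax complex form 1 block of 3.9 kb.

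The borders of the bithorax interval matter for its count and for the picture of a single PH-ML < PH-WT block. Within 50 kb before it lie 5 listed bins between 12468901 and 12477900, of which 1 is PH-ML > PH-WT, 3 are PH-ML < PH-WT and 1 is PH-ML < S2. Within 50 kb after it lie 4 more, of which 3 are PH-ML > PH-WT and 1 is PH-ML < PH-WT. With both edges moved outward by 50 kb the count for PH-ML against PH-WT is 22, with 14 in the interval as defined.

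The other listed bins are spread unevenly over proximal 3R. The 12.5 Mb were divided into 25 windows of 500 kb. A window holds a median of 2 bins listed for PH-ML against S2, with 0 in 4 windows and 34 in the fullest. For PH-WT against S2 the median is 4, with 0 in 3 windows and 31 in the fullest. For PH-ML against PH-WT every window holds listed bins, from 10 to 85 with a median of 24. The PH-ML > PH-WT bins are the majority in 10 windows and the minority in 14, and 1 window has equal numbers.

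**Figure D3:**
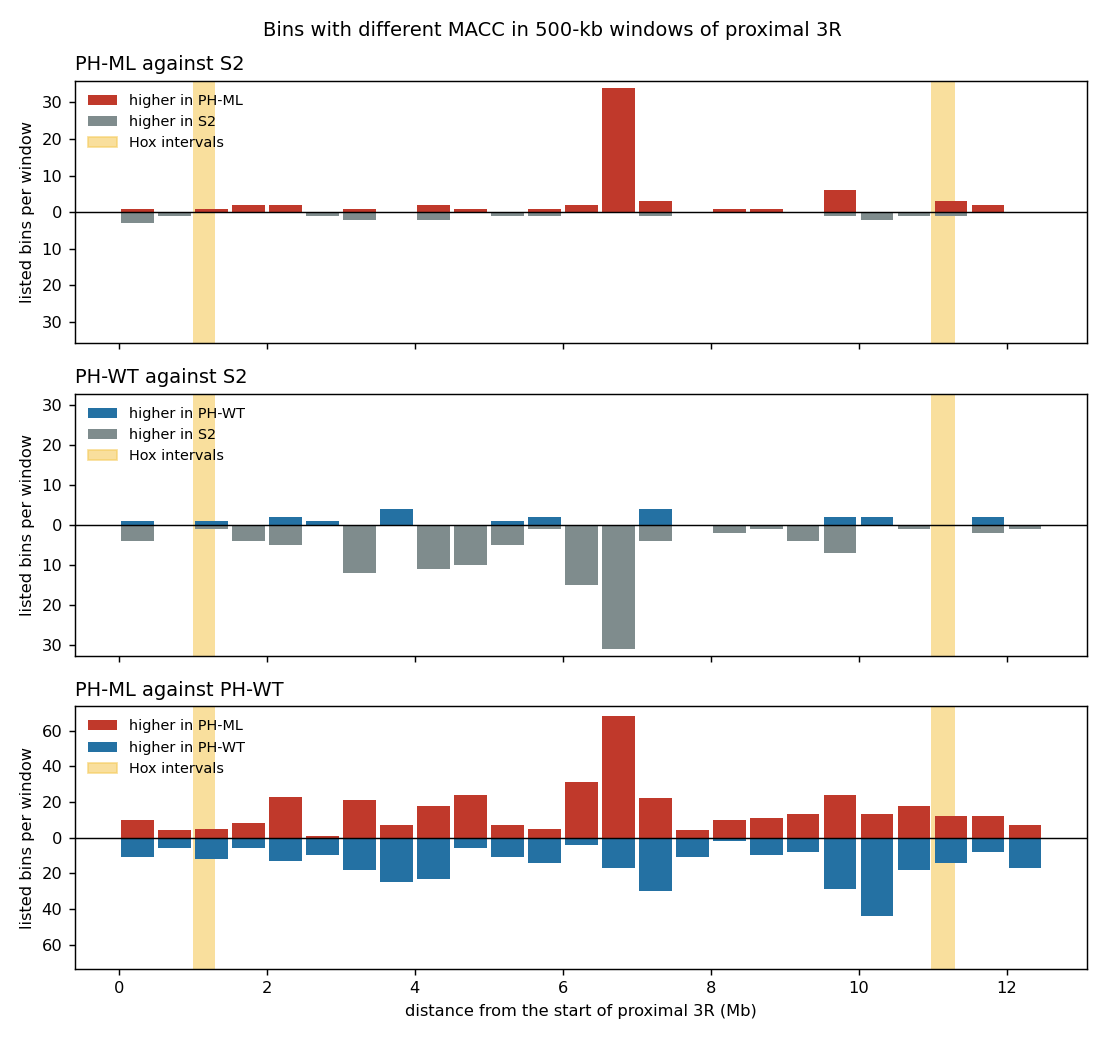
Number of listed bins in successive 500-kb windows (y axis) against the distance from the start of proximal 3R in Mb, with 1 panel per comparison. Bars upward are bins higher in the line named first, bars downward bins higher in the line named second, and the shaded bands are the Hox intervals; in all 3 comparisons the window from 6.5 to 7 Mb on this axis holds the most listed bins, with 34, 31 and 85.

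The fullest window is the same in every comparison and does not contain a Hox complex. It runs from 8000001 to 8500000 and has 1667 bins. It holds 34 PH-ML > S2 bins and 0 PH-ML < S2 bins, together 2.04% of its bins (1.46% to 2.84%) against the background of 0.174%. It holds 0 PH-WT > S2 bins and 31 PH-WT < S2 bins, together 1.86% (1.31% to 2.63%) against 0.305%. It holds 68 PH-ML > PH-WT bins and 17 PH-ML < PH-WT bins, together 5.10% (4.14% to 6.26%) against 1.49%. Because the window was chosen as the fullest, shares above the background follow in part from that choice, and the intervals do not allow for it. Of the proximal 3R list for PH-ML against S2 the window thus contains 42.5%, of that for PH-WT against S2 21.7% and of that for PH-ML against PH-WT 11.4%. Without it, the percent of proximal 3R listed for PH-ML against S2 is 0.115% (0.0862% to 0.153%), a fall that follows from the choice of the window and is not set against the background, which keeps its own dense windows.

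Many of these bins fall into short, dense stretches, formed by joining listed bins whose starts differ by no more than 5 kb. In proximal 3R 10 such stretches hold at least 10 listed bins each, a limit chosen after the values were seen. Between PH-ML and PH-WT, 7 of them hold PH-ML > PH-WT bins and no PH-ML < PH-WT bin, and the other 3 are mixed with a majority of PH-ML < PH-WT bins. The fullest window has 3 of the stretches. The first of these, from 8290801 to 8295900, has 13 of 17 bins listed, with 9 PH-ML > S2 bins, 9 PH-WT < S2 bins and 13 PH-ML > PH-WT bins. The next, from 8302801 to 8309400, has 10 of 22 bins listed, and the same counts are 4, 0 and 10. The largest, from 8323501 to 8337900, has 32 of 48 bins listed, with counts of 18, 21 and 32. No bin of these 3 stretches is listed in the opposite direction in any comparison.

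Outside the fullest window 4 more stretches lean to PH-ML. The one from 7779601 to 7787100 has 20 of 25 bins listed, with 2 PH-ML > S2 bins, 12 PH-WT < S2 bins and 20 PH-ML > PH-WT bins. The stretches from 3556801 to 3563100, from 11445301 to 11451300 and from 13401001 to 13408500 hold 10, 7 and 11 PH-ML > PH-WT bins. In the same order they hold 1, 1 and 2 PH-ML > S2 bins and 1, 4 and 2 PH-WT < S2 bins. Those starting at 11445301 and 13401001 also hold 1 PH-WT > S2 bin each, which goes the other way. The 3 stretches that lean to PH-WT are less dense, with 18 of 71, 15 of 47 and 10 of 36 bins listed. The one from 8831101 to 8852400 holds 6 PH-ML > PH-WT bins and 11 PH-ML < PH-WT bins, the one from 11886901 to 11901000 holds 2 and 13, and the one from 13508401 to 13519200 holds 3 and 7.

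Together the 10 stretches cover 332 bins, or 99.6 kb. They hold 37 of the 63 PH-ML > S2 bins of proximal 3R and 2 of the 17 PH-ML < S2 bins. They hold 4 of the 22 PH-WT > S2 bins and 50 of the 121 PH-WT < S2 bins. They also hold 114 of the 378 PH-ML > PH-WT bins and 31 of the 367 PH-ML < PH-WT bins. Without them the share higher in PH-ML is 63.4% against S2 (48.1% to 76.4%) and 44.0% against PH-WT (40.1% to 48.0%), and the share higher in PH-WT against S2 is 20.2% (13.2% to 29.7%). The majority between both PH-expressing lines thus depends on how dense places are counted. With each run of adjacent bins counted once, 250 runs are PH-ML > PH-WT and 282 are PH-ML < PH-WT (47.0% higher in PH-ML, 42.8% to 51.2%). The authors kept only uniquely mapped reads. Read numbers were not used here, and DNA copy number, repeated sequence and mappability of these stretches in the 3 lines were not tested.

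**Figure D4:**
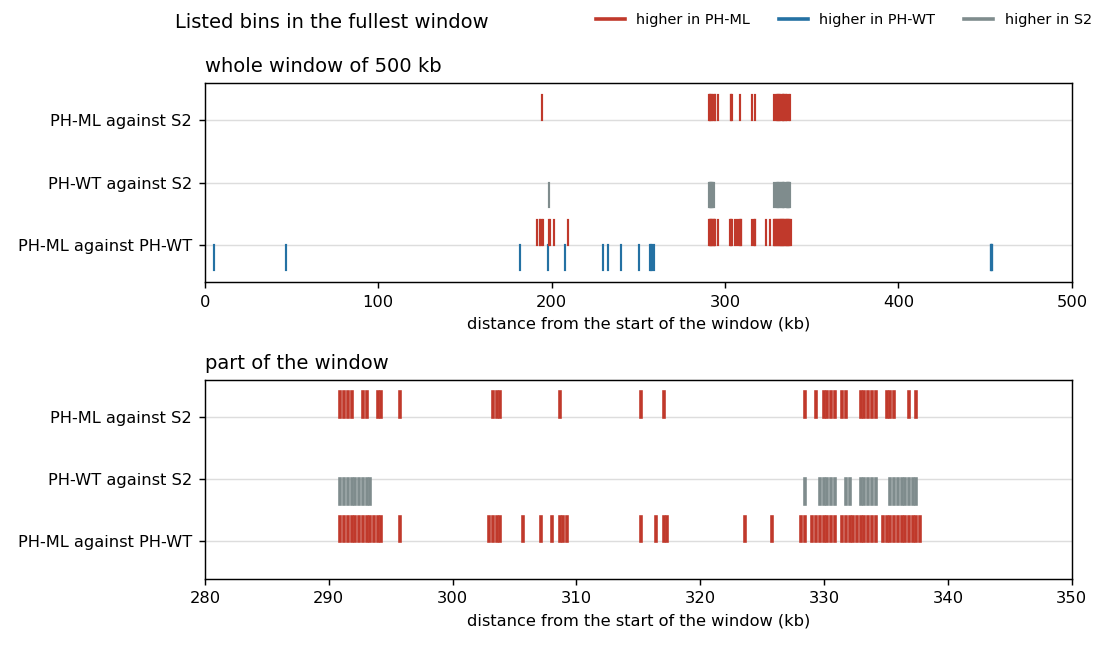
Listed bins in the window from 8000001 to 8500000 by distance from its start in kb, for the whole window (upper panel) and for an enlarged part of it around 3 of the dense stretches (lower panel). Each row is a comparison, ticks above a row are bins higher in the line named first and ticks below are bins higher in the line named second; these 3 stretches hold 31 of the 34 PH-ML > S2 bins and 30 of the 31 PH-WT < S2 bins.

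The longest runs of adjacent bins come from the same places. The 3 longest PH-ML > S2 runs have 5 bins from 8332801 to 8334300, 4 from 8290801 to 8292000 and 4 from 8329801 to 8331000. Every bin of these 3 runs is PH-WT < S2 and PH-ML > PH-WT in the other lists. The longest PH-WT < S2 runs have 9 bins from 8290801 to 8293500, 8 bins from 8335201 to 8337600 and 6 bins from 7785301 to 7787100, and 6, 4 and 1 of their bins are PH-ML > S2. The longest PH-ML > PH-WT runs have 12 bins from 8290801 to 8294400, 11 bins from 8334601 to 8337900 and 10 bins from 7779601 to 7782600.

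Runs in the other direction are shorter. The only PH-ML < S2 runs have 2 bins, from 1577401 to 1578000 and from 5510701 to 5511300, and all of their bins are PH-ML < PH-WT. Likewise the only PH-WT > S2 runs have 2 bins, from 3966001 to 3966600 and from 8836201 to 8836800, and these bins too are PH-ML < PH-WT. The longest PH-ML < PH-WT runs have 4 bins, and the first 3 of them by position run from 3965401 to 3966600, from 8453101 to 8454300 and from 11088601 to 11089800. In the first of these 3 runs 2 bins are PH-WT > S2, and no bin of the other two is listed in a comparison with S2.

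The next fullest window differs between the comparisons. For PH-WT against S2 it runs from 7500001 to 8000000, with 0 PH-WT > S2 bins and 15 PH-WT < S2 bins. For PH-ML against S2 it runs from 11000001 to 11500000, with 6 PH-ML > S2 bins and 1 PH-ML < S2 bin. For PH-ML against PH-WT it runs from 11500001 to 12000000, with 13 PH-ML > PH-WT bins and 44 PH-ML < PH-WT bins, together 3.42% of its bins (2.65% to 4.41%). In that window the majority is thus on the PH-WT side, unlike in the window from 8000001 to 8500000. A stretch from 11886901 to 11901000 holds 2 of its PH-ML > PH-WT bins and 13 of its PH-ML < PH-WT bins, and a stretch from 11906101 to 11916900 holds 0 and 8. Against S2 the window has 2 PH-ML < S2 bins and 2 PH-WT > S2 bins, and none in the other directions.

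At the other extreme, the window from 9000001 to 9500000 holds no listed bin in either comparison with S2 and 15 between PH-ML and PH-WT. The window from 2000001 to 2500000, next to the Antennapedia complex, holds the fewest bins listed between PH-ML and PH-WT, which are 4 PH-ML > PH-WT bins and 6 PH-ML < PH-WT bins. It has 1 PH-ML < S2 bin and no bin listed for PH-WT against S2.

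Listed bins close to each other mostly had the same direction, and in proximal 3R the share that did fell with distance up to the class of 10 to 50 kb. Successive bins listed in PH-ML against PH-WT were compared by the distance between their starts. Of 214 adjacent pairs in proximal 3R, 213 have the same line higher (99.5%, 97.4% to 99.9%). The share is 85.1% of 121 pairs up to 2 kb apart (77.7% to 90.4%) and 66.1% of 183 pairs at 2 to 10 kb (59.0% to 72.6%). It is 55.2% of 145 pairs at 10 to 50 kb (47.0% to 63.0%) and 59.3% of 81 pairs over 50 kb apart (48.4% to 69.3%), where the intervals include 50%. Without the fullest window the shares in the same order are 99.4%, 84.6%, 65.5%, 55.3% and 59.0%. In the rest of the series they are 98.6%, 78.8%, 64.1%, 57.3% and 52.3%, where the interval at 10 to 50 kb (54.5% to 60.0%) does not include 50%.

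**Figure D5:**
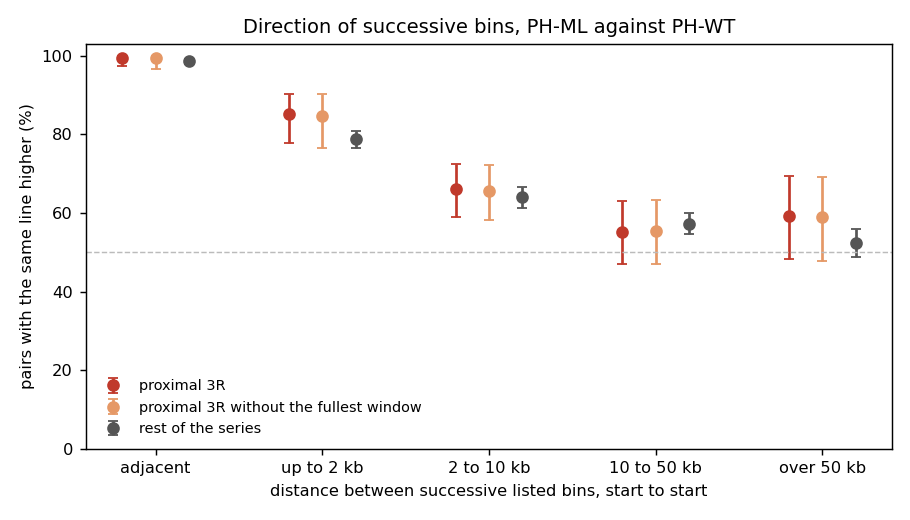
Percent of successive listed bins with the same line higher in PH-ML against PH-WT (y axis) by the distance between their starts (x axis), for proximal 3R, for proximal 3R without the fullest window and for the rest of the series. Points are shares, bars are 95% Wilson intervals and the dashed line marks 50%; in proximal 3R the share is 99.5% for adjacent bins and 55.2% at 10 to 50 kb.

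Runs also describe how clustered each direction is. In proximal 3R 49.2% of the 63 PH-ML > S2 bins lie in runs of at least 2 bins (37.3% to 61.2%), against 42.8% in the rest of the series. Of the 121 PH-WT < S2 bins it is 54.5% (45.7% to 63.1%), against 54.0% in distal 3R and 34.3% (31.4% to 37.4%) in the rest of the series. The share is 49.2% of the PH-ML > PH-WT bins, against 44.6% in the rest of the series, and 39.8% of the PH-ML < PH-WT bins, against 38.5%. In the smaller groups, 4 of 17 PH-ML < S2 bins and 4 of 22 PH-WT > S2 bins lie in such runs. These shares were not tested against each other. For PH-ML > S2 and PH-WT < S2 bins they rest in part on the fullest window. With both directions together, proximal 3R holds 22 adjacent pairs of bins listed for PH-ML against S2, and 5 without that window. For PH-WT against S2 the numbers are 49 and 25, and for PH-ML against PH-WT they are 214 and 165. Shares of bins in runs were not obtained without the fullest window.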

How the data were processed

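MNase-titration-seq libraries of 3 cell lines were grouped by cell line, MNase amount and replicate as labelled. The study's text gives 1.5 U as the lowest amount where the labels have 1.65, and the other amounts match. According to the methods and labels, the authors aligned the reads to dm3 with Bowtie and kept uniquely mapped reads that passed filters on mismatches and insert size. Positions with very high tag numbers were discarded. They computed read frequencies in 300-bp bins and scaled them to library size. A line was then fitted over the logarithm of the MNase amount and its slope corrected for GC content (MACC). The test and threshold behind their calls, and the number of bins they tested, are not given in the sources used here.

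The deposited lists are calls and not scores. Of 8 lists, 3 hold both directions and were used for all counts, and the other 5 hold 1 direction and matched them bin by bin. Entries were checked to be 300 bp long and on a common grid, and chromosomes were counted up to their last listed bin. Bins were assigned by their start. Runs are adjacent bins of the same direction, and merged regions are bins of the same direction with at most 1 kb between them. Regions named are all listed bins of the Hox intervals, the 3 longest runs of at least 2 bins per comparison and direction (ties by position), the 2 fullest windows, the windows with fewest bins and the fullest 20 kb; other stretches were picked from their values. In each comparison the fullest 20 kb overlap the stretch from 8323501 to 8337900. Members and lists were chosen with earlier results of these data known. Python 3.11.15 and scipy 1.17.1 were used, and the counting was tested on simulated data. Sequences of the bins, genes at the bins, nucleosome occupancy and sites bound by PH were not analysed here.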

Additional observations from a re-analysis of the deposited data

How the results depend on the processing

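No paired analysis was possible because the lists pool both experiments and hold no value per library, and no library could be left out. Of 60 alternatives, 42 left the value within its interval or within 1.5 times and 18 moved it. The majority changed from PH-ML to PH-WT in 4 of them, all for the share higher in PH-ML against PH-WT, whose interval includes 50%: 47.0% with runs of adjacent bins, 47.4% with regions merged within 1 kb, 47.0% without the fullest window and 44.0% without the 10 long stretches. The alternatives without the fullest window, the 10 long stretches or the Hox intervals were chosen after seeing the data. Without the fullest window the share higher in PH-ML against S2 was 63.0%, and the percent of bins listed was 0.115% for PH-ML against S2, 0.28% for PH-WT against S2 and 1.65% for PH-ML against PH-WT. Without the 10 long stretches the share higher in PH-ML against S2 was 63.4%. With regions merged within 1 kb the share higher in PH-WT against S2 was 25.0%, and the regions per 100 bins were 0.110 for PH-ML against S2, 0.192 for PH-WT against S2 and 1.10 for PH-ML against PH-WT, since merging leaves fewer units. The highest number of such regions in any window of 500 kb was 8, 7 and 35 in the same order. For PH-WT against S2 and for PH-ML against PH-WT this was not the window that is fullest by listed bins. The bithorax complex held 8 regions for PH-ML against PH-WT. With the edges of the Hox intervals moved outward by 50 kb, PH-ML against S2 had 1 listed bin in the Antennapedia complex, and PH-ML against PH-WT had 22 in the bithorax complex. Moving the edges of proximal 3R by 500 kb, shifting the windows by 250 kb and leaving out the Hox intervals changed no result beyond its interval or by more than 1.5 times. Taking directions from the lists of 1 direction could not move a value, because these lists match the others bin by bin. PH-ML > PH-WT bins have no such list and were read from the list of both directions. These alternatives are counted among the 42 and say nothing on how stable the results are. The lists hold calls alone, so no stricter threshold could be tried, and counts as low as 4 bins (PH-ML against S2, bithorax complex) and 1 bin (PH-WT against S2, Antennapedia complex) leave these shares uncertain.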
